A study of Mus musculus with 6 samples.

Results

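The prolactin family of the mouse is a group of genes for secreted hormones and hormone-like proteins, examined here together with Prlr, the gene of the prolactin receptor, in cultured epidermal keratinocytes. The 7 genes followed were Prl6a1, Prl8a9, Prl2c2, Prl2c3, Prl2b1, Prl3d1 and Prlr, of 24982 genes listed. They were selected on values measured in these same libraries, because Prl6a1 was lost in the DKSFM cells and the Prl2c genes are close copies of each other. Their levels are therefore given as a description, without a test. The files list 27 symbols of the family besides Prlr, and the 21 that were not selected are described beside the 6 that were.

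RNA was sequenced from 3 libraries of KSFM-Ca2+ cells and 3 libraries of DKSFM cells. The KSFM-Ca2+ cells are untreated C57BL/6 keratinocytes from neonatal skin, derived and kept in a serum-free medium of low calcium. The DKSFM cells are their descendants that were adapted to, and then kept in, a defined keratinocyte medium. The medium and the history of adaptation differ together between the lines, so the effects of each cannot be told apart. The values are mean read coverage per base of each gene as the authors deposited it, to 1 decimal. Coverage summed over all genes was 1601676, 1238411 and 1057750 in KSFM-Ca2+ replicates 1 to 3 and 1174348, 1239438 and 1170675 in DKSFM replicates 1 to 3. Nothing in the labels says whether replicates were separate cultures, so p-values measure only the spread between these libraries, which may be technical. Normalized coverage was the listed coverage divided by a scaling factor for each library. Because coverage is counted per base, levels of different genes can be compared per length. A listed step of 0.1 corresponded to about 1.02 reads of 85 bases for the Prl6a1 transcript and to about 11.6 reads for the much longer Prlr transcript.

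Prolactin itself is a hormone of the anterior pituitary that drives milk production, and it acts through a receptor of the cytokine class, which signals mainly through the kinase Jak2 and the transcription factors Stat5a and Stat5b. In rodents the gene was copied many times, and most of the copies are expressed in the placenta, by trophoblast cells, or in the decidua. Placental lactogens such as the product of Prl3d1 bind the prolactin receptor, whereas the proliferins made from the Prl2c genes are growth-associated proteins first found in dividing cultured cells. In skin, prolactin and its receptor are known for their part in the hair cycle.

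All 26 family genes with a position in the annotation lay on chromosome 13 (GRCm38, which is mm10), in 2 clusters. The first ran from 12790816 to 13191923 and held Prl2c3, Prl2c2 and Prl2c5. The second ran from 27057570 to 28151611 and held the other 23, among them Prl6a1 (27312627 to 27319252, plus strand), Prl8a9 (27557995 to 27564606, minus strand), Prl2b1 (27383339 to 27390846, minus strand) and Prl3d1 (27094190 to 27100258, plus strand). Prl2c4 had no gene model of its own in the annotation, and RefSeq gives it as another name of Prl2c3. Prlr lies on chromosome 15 from 10177238 to 10349180, on the plus strand. All of these are annotated as protein-coding genes.

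The promoters of genes that were lower in the DKSFM cells are shown because they share letters close to the start. Each line gives the 60 bases directly before the transcription start, 5′ to 3′ on the strand of the gene, and capitals mark TATATA, the core letters of a TATA box. Prl8a8 and Prl7d1 are shown as relatives whose transcripts were at or near 0. The sequences are those of RefSeq (GRCm38.p6), at chr13:27312555-27312614 (plus strand) for Prl6a1 and, on the minus strand, chr13:27564607-27564666 for Prl8a9, chr13:27582172-27582231 for Prl8a1 and chr13:27513218-27513277 for Prl8a8. Those of the Prl2c type lie at chr13:12800080-12800139 (minus strand) for Prl2c3, chr13:13182656-13182715 (plus strand) for Prl2c5 and chr13:27716738-27716797 (minus strand) for Prl7d1.
Prl6a1: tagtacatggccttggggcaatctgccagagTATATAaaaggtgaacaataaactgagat
Prl8a9: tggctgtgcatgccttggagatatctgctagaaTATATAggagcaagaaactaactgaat
Prl8a1: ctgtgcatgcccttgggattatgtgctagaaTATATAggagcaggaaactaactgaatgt
Prl8a8: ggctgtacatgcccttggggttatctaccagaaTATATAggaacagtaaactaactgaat
Prl2c3: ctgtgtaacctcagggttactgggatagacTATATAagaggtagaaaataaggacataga
Prl2c5: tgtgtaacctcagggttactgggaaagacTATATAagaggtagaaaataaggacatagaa
Prl7d1: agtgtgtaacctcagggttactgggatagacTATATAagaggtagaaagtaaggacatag

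TATATA on the strand of the gene was found in the last 50 bases before the start in 18 of the 22 family genes with a promoter in the table, and in 1.35% of all 32851 promoters. Prl8a6, although lower in the DKSFM cells like the others, had no such letters in the window before its listed start. Family genes descend from a common ancestor, so these are not independent matches. Promoter likeness and level did not go together in a simple way. Over 250 bases before the start, Prl2c3 and Prl2c5 were 96.4% identical, and Prl8a9 and Prl8a1 were 82.8% identical. The genes of both pairs were expressed in the KSFM-Ca2+ cells and lower in the DKSFM cells. Prl7d1 was 94.4% identical to Prl2c3 over these bases. Its listed coverage was nevertheless 0.5, 0.2 and 0.3 in the KSFM-Ca2+ libraries and 0 in the DKSFM libraries. Prl8a8 was 79.2% identical to Prl8a9 over the same length and was listed at 0 in all 6 libraries. Of the other motifs searched on both strands in the 250 bases, TGANTCA (the AP-1 type) was present in 7 of the 22 genes and in 6.75% of all promoters, TTCNNNGAA (the STAT type) in 5 genes and in 7.02% of promoters, and AGATAA (the GATA type) in 8 genes and in 9.99% of promoters. These are matches of letters only, and binding was not analysed here.

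Prl6a1, the gene of prolactin-like protein B of the placenta, had listed coverages of 176.7, 149.3 and 126.3 in KSFM-Ca2+ replicates 1 to 3, and 0, 0.1 and 0 in DKSFM replicates 1 to 3. The normalized coverage in the KSFM-Ca2+ libraries was 134.7, 148 and 149, or 144 ± 8.05 (SD, n = 3), above 86.2% of tested genes. The lines did not overlap, and the single value of 0.1 among the DKSFM libraries stands for about 1.02 reads, against 1804, 1525 and 1290 approximate reads in the KSFM-Ca2+ libraries. The log2 difference of DKSFM minus KSFM-Ca2+ was -10.16 on the log2(normalized coverage + 0.1) scale. Its size depends on the pseudocount, since with a pseudocount of 1 it was -7.13. No fold is given against a line at the rounding step.

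Prl8a9, a gene of the C type of placental prolactin-like proteins, had the highest coverage of the family in the KSFM-Ca2+ cells. Its listed coverage was 434.6, 390.8 and 293.7 in KSFM-Ca2+ replicates 1 to 3 and 1.8, 1.6 and 1.4 in DKSFM replicates 1 to 3. After normalization the KSFM-Ca2+ libraries had 331, 388 and 347 and the DKSFM libraries 1.91, 1.6 and 1.48. All KSFM-Ca2+ libraries were far above all DKSFM libraries, and within each line the values were close. The means were 355 ± 29.1 and 1.66 ± 0.218 (SD, n = 3 each), which is 214-fold lower in the DKSFM cells (log2 difference -7.66). The level lay above 95.0% of tested genes in the KSFM-Ca2+ cells and above 11.1% in the DKSFM cells.

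Like Prl8a9, the proliferin genes Prl2c2 and Prl2c3 kept a measurable level in the DKSFM cells. Prl2c2 spans 12996125 to 13005383 of chromosome 13, and its listed coverage was 64, 53.2 and 39.2 in KSFM-Ca2+ replicates 1 to 3 and 3, 2.5 and 2.6 in DKSFM replicates 1 to 3. Its normalized coverage was 48.8, 52.8 and 46.3 in the KSFM-Ca2+ cells, against 3.18, 2.49 and 2.76 in the DKSFM cells. That is 49.3 ± 3.27 and 2.81 ± 0.343 (SD, n = 3 each), or 17.5-fold lower in the DKSFM cells (log2 difference -4.09). Prl2c3 spans 12790816 to 12800079, and its listed coverage was 20.2, 16.6 and 12.1 in the KSFM-Ca2+ replicates and 1.1, 1.2 and 1 in the DKSFM replicates. Its normalized coverage was 15.4, 16.5 and 14.3, against 1.16, 1.20 and 1.06, a 13.5-fold lower mean in the DKSFM cells (log2 difference -3.64). Neither gene overlapped between the lines.

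The values of these copies are uncertain one by one, because reads can be shared among them. The coding sequences of Prl2c2 and Prl2c3, of 672 bases each, differed at 3 positions (99.6% identical), while Prl2c5 was 96.1% identical to Prl2c2. In the stretch of read length with the most differences among the 3 genes, only the first marked position separates Prl2c2 from Prl2c3. That stretch, inside exon 4 of 5, has capitals at the 5 positions that differ, and at each of them Prl2c5 differs from Prl2c2. It lies at chr13:12997383-12997467 (minus strand) for Prl2c2, chr13:12792090-12792174 (minus strand) for Prl2c3 and chr13:13190586-13190670 (plus strand) for Prl2c5 in GRCm38, and is read from the GENCODE M21 transcripts.
Prl2c2: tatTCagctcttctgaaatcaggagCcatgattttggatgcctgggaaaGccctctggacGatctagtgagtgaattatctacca
Prl2c3: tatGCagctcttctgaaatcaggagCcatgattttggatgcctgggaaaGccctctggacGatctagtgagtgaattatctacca
Prl2c5: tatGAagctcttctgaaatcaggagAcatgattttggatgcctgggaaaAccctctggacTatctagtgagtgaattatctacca

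Of the 85-base windows of the Prl2c2 transcript, 25.5% occurred in no other annotated gene, and of those of Prl2c3 33.1%. Prl2c2 shared 517 of its 758 windows with Prl2c3. Prl2c5 had 85.9% of its windows to itself, and Prl6a1, Prl8a9, Prl8a1, Prl8a6 and Prl2b1 had 100%. Prl2c5, which spans 13182715 to 13191923 and was not selected, had a listed coverage of 106.4, 90 and 64.7 in the KSFM-Ca2+ replicates and 1.2, 0.8 and 1.4 in the DKSFM replicates. Its normalized means were 82.3 ± 6.51 and 1.18 ± 0.351 (SD, n = 3 each), a 69.5-fold difference. The ratio of Prl2c5 to Prl2c2 did not overlap between the lines. Prl2c5 had 1.66, 1.69 and 1.65 times the coverage of Prl2c2 in the KSFM-Ca2+ libraries and 0.4, 0.32 and 0.538 times in the DKSFM libraries. The entry Prl2c4 was listed at 20.3, 16.8 and 12.1 and at 1.1, 1.2 and 1, within 0.2 of Prl2c3 in every library. Whether both entries hold the same reads or shares of them was not tested. Summed over Prl2c2, Prl2c3, Prl2c4 and Prl2c5, which may share reads, normalized coverage was 162 ± 12.0 in the KSFM-Ca2+ libraries and 6.27 ± 0.548 in the DKSFM libraries (SD, n = 3 each).

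**Figure D1:**
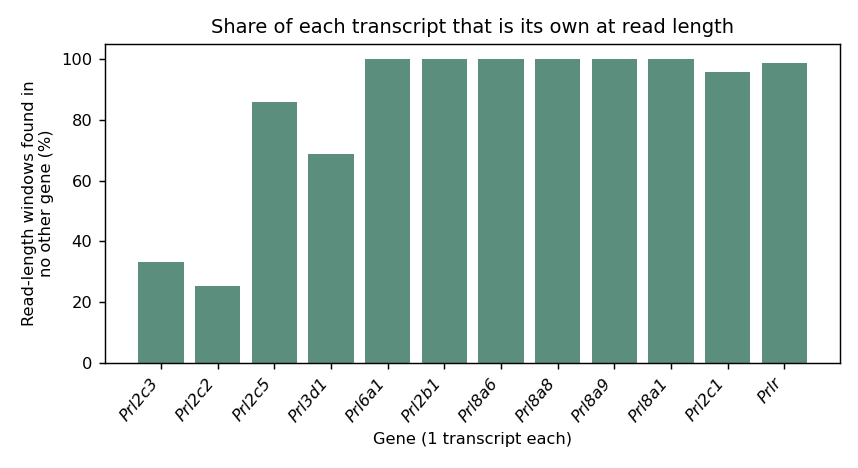
Share of the 85-base windows of 1 transcript per gene that occur in no other annotated gene, in percent; each bar is a gene. Prl2c2 (25.5%) and Prl2c3 (33.1%) are mostly shared sequence, whereas Prl6a1 and Prl8a9 reach 100%.

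The other family genes among those selected were at or near 0. Prl2b1, the gene of the K form of placental prolactin-like protein, was listed at 0.1, 0.1 and 0 in the KSFM-Ca2+ libraries and at 0 in the DKSFM libraries. Prl3d1, the gene of a placental lactogen, was listed at 0 in all 6 libraries. Both are at the limit of what the rounding step can show.

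The receptor gene Prlr was listed at 0 in the 3 KSFM-Ca2+ libraries and reached 0.2, 0.3 and 0.2 in DKSFM replicates 1 to 3. For a transcript of 9900 bases these values stand for about 23.3, 34.9 and 23.3 reads. The lines did not overlap. With a highest normalized coverage of 0.299, Prlr stayed under the filter of 0.5 used for the test, and no fold is given against a line listed at 0.

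**Figure D2:**
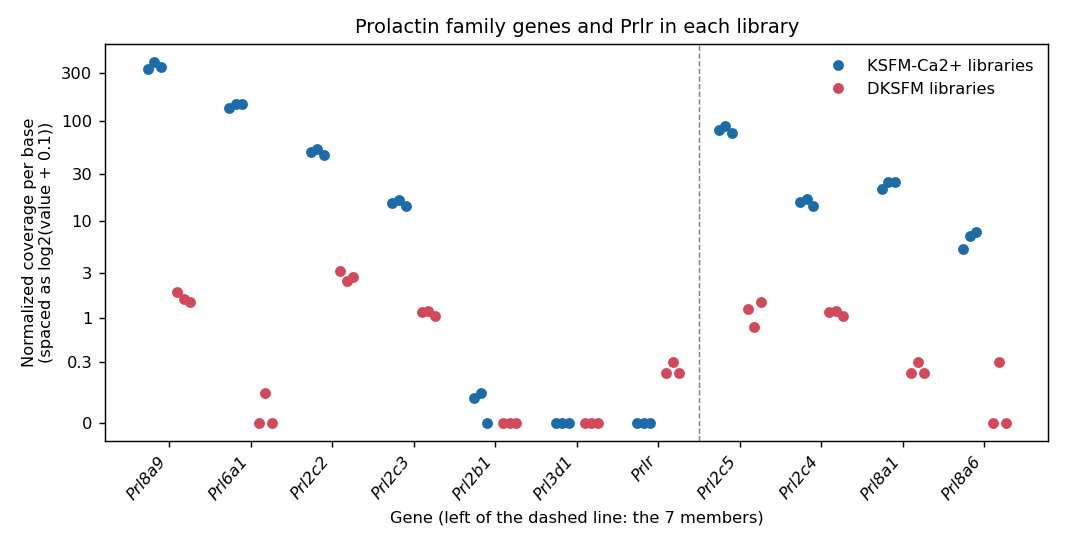
Normalized coverage per base of the 7 selected genes and of 4 further family genes; each point is 1 library, and the vertical axis is spaced as log2(value + 0.1). The KSFM-Ca2+ libraries of Prl8a9 lie between 331 and 388 and its DKSFM libraries between 1.48 and 1.91, while Prlr is at 0 in the KSFM-Ca2+ libraries and between 0.212 and 0.299 in the DKSFM libraries.

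Of the 7 selected genes, 4 passed the filter, which asked for 0.5 or more after normalization in 3 or more libraries (Prl6a1, Prl8a9, Prl2c2 and Prl2c3). In each of these the 3 KSFM-Ca2+ libraries lay above the 3 DKSFM libraries. Libraries separated in this way, in one direction or the other, in 83.3% of the 12409 tested genes, and nothing is read from the count because the genes were picked on this contrast. Prl6a1 passed the filter only through the line in which it was high.

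Of the 21 family genes that were not selected, 6 were listed at 0 in every library (Prl3d2, Prl3d3, Prl3c1, Prl3b1, Prl8a8 and Prl4a1). Another 10 stayed under a listed coverage of 1. Among these, Prl, the gene of prolactin itself, had 0.2, 0.6 and 0.2 in the KSFM-Ca2+ replicates and 0.4, 0 and 0 in the DKSFM replicates, with overlap between the lines. Prl2a1 was listed at 0.9, 0.5 and 0.7 and at 0, 0 and 0.1. The other 8 (Prl3a1, Prl8a2, Prl7b1, Prl7a1, Prl7d1, Prl7c1, Prl2c1 and Prl5a1) never exceeded 0.5. A listed coverage of at least 1 was reached by 5 genes, which were Prl2c4 and Prl2c5 of the proliferin type, and Prl8a1, Prl8a6 and Prl7a2. Prl8a1, which lies next to Prl8a9 (27573922 to 27582171), had a listed coverage of 27.7, 24.9 and 21.2 in the KSFM-Ca2+ replicates and 0.2, 0.3 and 0.2 in the DKSFM replicates. Prl8a6 (27432681 to 27438688) had 6.9, 7.2 and 6.6 against 0, 0.3 and 0. Like Prl6a1, both passed the filter only through the KSFM-Ca2+ line, so no fold is given for them. Prl7a2 was listed at 1.1, 0.2 and 0.1 and at 0.6, 1.2 and 1.3, so that its lines overlapped.

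In the KSFM-Ca2+ cells the order of the levels per base was Prl8a9, Prl6a1, Prl2c5, Prl2c2, Prl8a1, then Prl2c4 and Prl2c3, and then Prl8a6. Libraries of neighbours in this order did not overlap, except those of Prl2c4 and Prl2c3. In the DKSFM cells Prl2c2 came first, with its libraries above those of Prl8a9, and Prl2c3, Prl2c5 and Prl7a2 overlapped each other. The places of the Prl2c genes in both orders are uncertain, because reads can be shared among them. The whole family summed to a normalized coverage of 656, 745 and 682 in the KSFM-Ca2+ libraries and 10.4, 9.18 and 9.86 in the DKSFM libraries. Prl8a9 supplied 50.5%, 52.0% and 50.8% of this sum in the KSFM-Ca2+ libraries and 18.4%, 17.4% and 15.1% in the DKSFM libraries, where Prl2c2, Prl2c3, Prl2c4 and Prl2c5 made up 65.3%, 62.0% and 64.5%. In these bulk libraries, fewer cells with the transcripts and less transcript in each cell cannot be told apart.

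**Figure D3:**
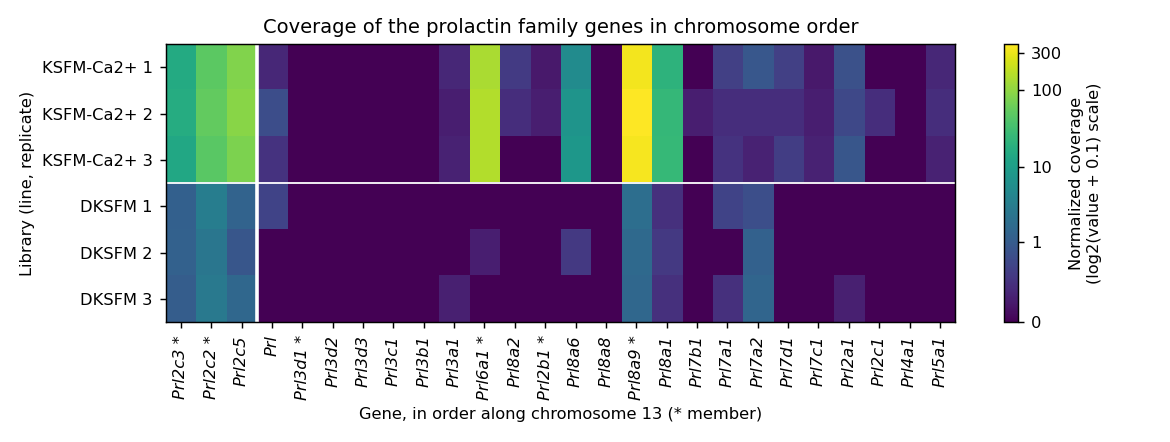
Normalized coverage of the 26 placed family genes in their order along chromosome 13, with 1 row per library, 1 column per gene, colour on the log2(value + 0.1) scale and asterisks at selected genes; the white vertical line parts the clusters. In the larger cluster the KSFM-Ca2+ rows are highest at Prl8a9 (355 on average) and Prl6a1 (144), followed by Prl8a1 and Prl8a6, while Prl8a8, between Prl8a6 and Prl8a9, is at 0.

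Genes of both clusters were low or lost in the DKSFM cells, although the clusters lie apart on the chromosome. Within the larger cluster, Prl8a9 and Prl8a1 are adjacent, and the silent Prl8a8 lies between Prl8a9 and Prl8a6. The tested genes nearest to the smaller cluster were Gpr137b-ps, at 140.4 kb, and Gpr137b, at 165.7 kb, a pseudogene and its parent gene, which encodes a lysosomal membrane protein. Both fell in the DKSFM cells, by a log2 difference of -1.92 for Gpr137b-ps (SE 0.07, limma adjusted p = 5.69e-08) and -2.80 for Gpr137b (SE 0.07, limma adjusted p = 9.24e-09), and as copies of each other they may share reads. The tested genes nearest to the larger cluster were Mrs2, a mitochondrial magnesium channel gene at 2037.2 kb, and the non-coding 2610307P16Rik at 308.4 kb. Mrs2 had 14.9 ± 0.781 in the KSFM-Ca2+ libraries and 9.87 ± 0.546 in the DKSFM libraries (SD, n = 3 each), which is under a 2-fold change. 2610307P16Rik was higher in the DKSFM cells, at 3.37 ± 0.812 (SD, n = 3) against a mean of 0.156 near the rounding step. Leaving out the prolactin family, 451 tested genes of chromosome 13 had a median log2 difference of -0.16, beside -0.01 for all tested genes. Within 5 Mb of the smaller cluster the median was -0.24 over 29 genes, and within 5 Mb of the larger one it was -0.03 over 40 genes. Past the threshold described below were 50 genes as higher and 55 as lower on chromosome 13, 0 and 4 near the smaller cluster, and 10 and 5 near the larger one, beside 13.1% higher and 10.6% lower of all tested genes. The part of any chromosome-wide shift in the values of the family was not tested.

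The genes whose pattern over the 6 libraries came closest were found by the root mean square difference of log2(normalized coverage + 0.1). For Prl6a1 these were Csf3, which encodes a granulocyte growth factor (0.84), the chemokine gene Ccl20 (1.02) and Ctsz, the gene of a cathepsin (1.33). For Prl8a9 they were the chemokine genes Ccl2 (0.44) and Cxcl5 (0.55) and the cytokine gene Il24 (0.65). For Prl2c2 they were Cp, which encodes ceruloplasmin (0.25), the connexin gene Gjc1 (0.33) and the potassium channel gene Kcnk2 (0.45). For Prl2c3 they were Prl2c4 (0.0076), the growth factor gene Ereg (0.18) and Prss16 (0.19). With 2 lines, likeness here means a similar level in each line.

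The other genes of the pathway were counted from lists of receptor signalling, mammary and milk targets, and related receptors and ligands. Across all tested genes, 23.7% were past the threshold (a Benjamini-Hochberg adjusted p under 0.01 in limma and a change of at least 2-fold), 13.1% as higher and 10.6% as lower in the DKSFM cells. Of the 29 receptor signalling genes, 28 were tested, and 4 rose, 3 fell and 21 did not pass. Their median log2 difference was -0.03, beside -0.01 for all tested genes. Jak2, Stat5a and Stat5b, the main carriers of the receptor signal named above, were expressed in both lines and changed by less than 2-fold. Jak2 had 26.5 ± 0.673 in the KSFM-Ca2+ libraries and 22.3 ± 0.885 in the DKSFM libraries. Stat5a had 5.45 ± 0.554 and 6.64 ± 0.126, and Stat5b had 14.2 ± 0.557 and 11.8 ± 0.924 (normalized coverage ± SD, n = 3 each). None of these 3 passed the threshold.

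Among feedback inhibitors of cytokine receptors, which are themselves induced by Stat factors, the directions were mixed. Socs2 rose from 29.4 ± 3.06 to 120.1 ± 2.07 (log2 difference 2.03, SE 0.07, limma adjusted p = 4.64e-08). Socs3 rose from 14.3 ± 1.27 to 42.0 ± 1.98 (log2 difference 1.55, SE 0.07, limma adjusted p = 2.74e-07). Socs1 fell from 4.07 ± 0.0911 to 1.35 ± 0.216 (log2 difference -1.53, SE 0.13, limma adjusted p = 1.18e-05). Cish, the family member most closely tied to Stat5, had 22.2 ± 1.71 and 26.6 ± 1.68 and did not pass. These inhibitors respond to many cytokines, and which signal moved them was not tested.

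Of the other signalling genes past the threshold, Pik3r1, the regulatory subunit of phosphoinositide kinase, rose from 10.5 ± 0.399 to 86.6 ± 3.29 (log2 difference 3.03). Irs2, an adaptor of the insulin receptor, fell from 24.2 ± 0.560 to 7.67 ± 0.618 (log2 difference -1.65), and the kinase gene Fyn fell from 20.7 ± 1.23 to 8.05 ± 0.586 (log2 difference -1.35). For each of these the libraries of the lines did not overlap.

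The targets known from the mammary gland were mostly silent. Of 10 genes, 8 were listed at 0 in all 6 libraries, among them the caseins Csn1s1, Csn1s2a, Csn2 and Csn3 and the milk protein genes Wap and Lalba. Elf5, a transcription factor of the milk-secreting lineage, was listed at 0 in the KSFM-Ca2+ libraries and at 0, 0.1 and 0.1 in those of DKSFM. The cell cycle gene Ccnd1, which many growth signals induce, was the 1 gene of this list that could be tested, and it fell from 760.5 ± 9.95 to 174 ± 6.42 (log2 difference -2.12, SE 0.03, limma adjusted p = 1.00e-09). Of the 8 related receptors and ligands, 3 were tested and none passed the threshold. Ghr, the growth hormone receptor gene, had 6.98 ± 0.740 in the KSFM-Ca2+ libraries and 11.6 ± 0.856 in the DKSFM libraries. Igf2r, whose product binds proliferin as well as insulin-like growth factor, had 34.9 ± 0.405 and 26.8 ± 0.374. Gh, Prlh and Prlhr were listed at 0 in all 6 libraries.

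**Figure D4:**
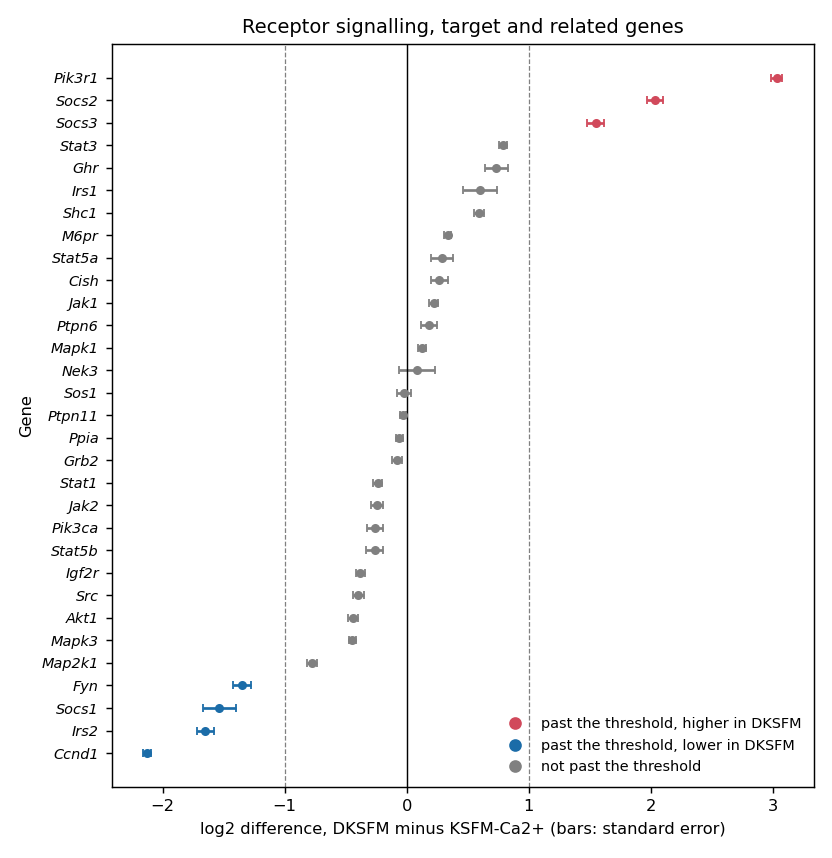
Log2 difference of DKSFM minus KSFM-Ca2+ for 31 of the 32 tested genes of the signalling, target and related lists; points are estimates over 3 libraries a line, bars are standard errors and dashed lines mark a 2-fold change. Pik3r1 (3.03) and Socs2 (2.03) stand highest and Ccnd1 (-2.12) lowest, and most of the genes lie between the dashed lines.

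The label of the cells was checked against marker genes. All 8 keratinocyte markers were tested and expressed in both lines. Krt14 had 11991 ± 242 in the KSFM-Ca2+ libraries and 29679 ± 1520 in the DKSFM libraries, and Krt5 had 4690.5 ± 25.9 and 11133 ± 789. Perp had 1518 ± 34.2 and 4661 ± 99.3, and these 3 rose. Trp63 (405 and 442), Itga6 (259 and 284), Col17a1 (1424 and 1831), Dsg3 (207 and 198) and Sfn (404 and 444) did not pass the threshold. The keratinocyte list summed to 20769, 21169 and 20760 in the KSFM-Ca2+ libraries and 49683, 46024 and 50309.9 in the DKSFM libraries.

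Because most of the family is known from placenta and pituitary, markers of those tissues were looked up in the same libraries. Of 18 trophoblast markers, 7 were listed at 0 in every library, among them Tpbpb, Gcm1, Synb, Cdx2, Esrrb and Hand1, and Tpbpa did not exceed 0.1. The list was tested for 6 genes, of which 2 fell and none rose, beside 10.6% lower and 13.1% higher of all tested genes. Ascl2 had 1.84 ± 0.399 and 0.688 ± 0.190. Eomes was listed at 0.7, 0.7 and 0.6 in the KSFM-Ca2+ libraries and at 0 in the DKSFM libraries. Eomes passed the filter only through the KSFM-Ca2+ line, so nothing is read from its direction. Plac1 was listed at 1.3, 1.2 and 1 and at 0.7, 0 and 0.4 and did not pass. Syna (1, 0.8 and 0.9 against 0.5, 0.4 and 0.5), Nrk (0.4, 0.3 and 0.2 against 0) and Gata2 (0.1, 0.2 and 0.1 against 0) were also listed higher in the KSFM-Ca2+ libraries; Syna did not pass, and the other 2 were under the filter. The list summed to 54.0, 55.2 and 52.1 in the KSFM-Ca2+ libraries and 69.1, 70.0 and 67.4 in the DKSFM libraries, led by Tfap2c (37.0 and 45.0 on average) and Gata3 (11.8 and 22.2), which the epidermis also expresses. Of 9 pituitary markers, 6 were listed at 0 in every library, and Lhb, the most abundant, was listed at 0.3, 0.9 and 0.3 and at 0.7, 0.7 and 0.7. That list summed to 0.229, 0.893 and 0.354 and to 0.847, 0.699 and 0.954. The calls among the trophoblast markers rest on values near the rounding step, and their number went from 2 to 1 with a pseudocount of 0.5 and to 0 with a pseudocount of 1.

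Markers of other cells of skin were also looked up. Of the fibroblast list, Col1a1, Col1a2, Col3a1, Lum and Dcn were listed at 0 in all libraries. Twist2 had listed values of 10, 7.4 and 6 against 0.1, 0 and 0, and it passed the filter only through the KSFM-Ca2+ line. Pdgfra had 1.11 ± 0.205 and 2.22 ± 0.117. That list summed to 8.77, 8.23 and 8.38 in the KSFM-Ca2+ libraries and 2.43, 2.10 and 2.23 in the DKSFM libraries. Of the melanocyte list, Mitf rose from 3.52 ± 0.415 to 17.7 ± 0.672, while Tyr and Dct were listed at 0, and the list summed to 3.96, 3.97 and 4.61 and to 17.3, 18.7 and 18.3. Of the immune list, Cd74 was listed at 1.6, 1.5 and 1.6 in the KSFM-Ca2+ libraries and at 0 in the DKSFM libraries, H2-Aa was listed at 0 throughout, and the list summed to 1.22, 1.59 and 1.89 and to 0, 0.200 and 0. Of the endothelial list, Pecam1 rose from 2.78 ± 0.255 to 7.57 ± 0.591, Cdh5 was listed at 0, and the list summed to 2.67, 2.78 and 3.07 and to 8.04, 8.18 and 7.10. The marker genes differed in direction, and the part of other cells in the levels of the prolactin family was not tested.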

How the data were processed

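The authors sequenced poly(A) RNA and, with STAR and Salmon, mapped it to mm10. They deposited a signal, the mean coverage per base of each gene, unscaled and to 1 decimal; how coverage was calculated is not given in the sources used here. Libraries were scaled by trimmed means of M values without weights (trims of 30% and 5%). Genes with normalized coverage of 0.5 or more in 3 libraries (2 when a library was left out) were tested with limma (trend) on log2(normalized coverage + 0.1) and adjusted by Benjamini-Hochberg. The procedure was tested on simulated data. The 7 genes and all lists were chosen with earlier results of these data known. Named genes were the family, listed pathway genes past the threshold with 10 fixed ones, markers past it, averaging at least 1 or, for trophoblast, not overlapping, the 3 nearest patterns and the cluster neighbours; the values of 2 of these genes are not reported here. Windows were compared over GENCODE M21 transcripts (1 per gene, by APPRIS rank), and promoters came from RefSeq (GRCm38.p6). R 4.3.3, limma 3.58.1, Python 3.11.15, Biopython 1.88 and matplotlib 3.10.9 were used. Depth is approximate, since no read counts were used, and the rounding step limits low values.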

Additional observations from a re-analysis of the deposited data

How the results depend on the processing

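The log2 differences of the selected genes shrank with larger pseudocounts. The log2 difference of Prl6a1 was -8.09 with a pseudocount of 0.5 and -7.13 with a pseudocount of 1, which follows from its values at the rounding step, and -10.49 to -10.00 with single libraries left out. With pseudocounts of 0.5 and 1, that of Prl8a9 was -7.36 and -7.06 (-7.66 before), that of Prl2c2 -3.91 and -3.72 (-4.09 before) and that of Prl2c3 -3.27 and -2.93 (-3.64 before); Prl2c3 had -3.53 in the libraries named combined. The number of trophoblast and pituitary genes past the threshold was 4 without a filter, 1 with the filter on every library, 1 with a pseudocount of 0.5, and 0 both with a pseudocount of 1 and in the libraries whose file names say combined (KSFM-Ca2+ replicate 3 and the DKSFM libraries, where the lone library is assumed to vary like the others). It was 2 to 3 with single libraries left out. The word combined is not explained in the sources used here. The number of genes past the threshold ran from 1990 with the filter on every library to 3459 without a filter, against 2946, and the signalling and target lists gave 8 in each setting.

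Same-numbered libraries of the lines did not deviate together (r = -0.01, 0.02 and -0.01 over 12409 genes), so the numbers were not taken as pairs. With a replicate block, 2953 genes, 8 signalling and target genes and 2 marker genes were past the threshold.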
